A study of Homo sapiens with 18 samples.

Results

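The cytosolic ribosomal protein genes encode the proteins of the large and small subunits of the ribosome that translates nuclear-encoded messages. They were taken from the whole transcriptome table as every symbol made of RPL or RPS, a number and at most a letter, X or L, together with RPLP0, RPLP1, RPLP2 and RPSA, without pseudogenes, antisense genes and the RPS6K kinases. This gave 82 of the 38055 genes listed, 50 of the large subunit and 32 of the small subunit. Of these, 77 were the usual genes and 5 were L paralogs (RPL3L, RPL10L, RPL36AL, RPL39L and RPS27L), copies of another member that encode a closely related protein. RPL13P fits the letters of the rule but is a pseudogene and was left out. FAU, which encodes a ribosomal protein fused to a ubiquitin-like protein, and RACK1 carry other names and appear below only as neighbours of the set.

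The study asked how crowding changes small RNA pathways in cultured cells, and sequenced whole-cell RNA at rising density. The cells were wild-type HCT116, an established human colorectal carcinoma line of epithelial origin, with no genetic change or drug in either group used here. They were grown in flat culture to day 3 (50% confluency) or day 5 (250% confluency), with 3 libraries per day labelled as biological replicates, and medium was renewed as they grew. Density and days in culture changed together, so their parts in any difference cannot be told apart, and a single line was grown. Each library held 27470978 to 56689369 reads on genes, as recovered from the deposited values. Replicates of a day differed by more than sampling noise in all 6 pairs, with a chi-square per degree of freedom of 4.14 to 21.99 over genes. Of 8 epithelial markers, 6 passed the filter on low values, and EPCAM stood at 7227 ± 257 on day 3 and 7236 ± 173 on day 5 (normalised value, SD, n = 3), whereas CDH17 and VIL1 were near 0 in both groups. The other 5 were higher on day 5, and the summed value of the list was 37745 to 56061 on day 3 and 103060 to 103810 on day 5. Of 9 markers of blood, endothelial and stromal cells, 5 did not pass that filter, with PTPRC and CD3E at 0 or near it, and 2 of the others were higher on day 5, chiefly COL1A1 at 521 ± 42.1 on day 3 and 1129 ± 33.2 on day 5. The part of these markers in the results below was not tested.

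Each ribosome holds a single copy of nearly every ribosomal protein, and a growing cell makes them in matched amounts. Most of their messages begin with a 5′ terminal oligopyrimidine tract (5′ TOP), a C followed by an unbroken run of C and T, through which LARP1 and the TOR pathway hold back or release their translation and protect the messages when growth slows. The genes also gave rise to very many processed pseudogenes, and many of their introns carry small nucleolar RNAs. Some free ribosomal proteins bind MDM2, a ubiquitin ligase.

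The start sites below are shown because the 5′ TOP letters are the sequence feature most of these genes share. RefSeq start sites (GRCh38.p14) were found for 65 members, and 46 of them (70.8%) had a C at the first base and at least 5 bases of C or T in an unbroken run from it on the gene's own strand, at any of the gene's listed start sites. Among all 27305 genes with a RefSeq start site, 1404 (5.14%) had these letters. Each line gives 10 bases before the start and 20 from it, 5′ to 3′, with the run of C and T from the start base in capitals, at the listed start site where that run was longest. The first 5 genes are those with the largest falls among well-expressed members, the next 4 did not pass the test, and EEF2, a translation factor, is shown for contrast because its level rose.
RPL39, chrX:119791611-119791640, minus strand: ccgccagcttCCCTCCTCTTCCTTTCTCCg
RPS7, chr2:3575250-3575279, plus strand: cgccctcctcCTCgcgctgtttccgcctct
RPL34, chr4:108620566-108620595, plus strand: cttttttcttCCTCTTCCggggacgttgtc
RPS27A, chr2:55232678-55232707, plus strand: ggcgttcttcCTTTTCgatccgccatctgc
RPS23, chr5:82278335-82278364, minus strand: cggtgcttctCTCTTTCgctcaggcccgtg
RPL28, chr19:55385922-55385951, plus strand: cctcgccttcCTCTTTCCgtctcaggtcgc
RPL13, chr16:89560672-89560701, plus strand: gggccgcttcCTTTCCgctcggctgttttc
RPL7A, chr9:133348208-133348237, plus strand: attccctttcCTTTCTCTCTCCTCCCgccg
RPL3, chr22:39319604-39319633, minus strand: gccgaccggcCTCTaccggcgggatttgat
EEF2, chr19:3985444-3985473, minus strand: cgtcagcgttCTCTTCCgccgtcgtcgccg
The run was 19 bases long in RPL39, 16 in RPL7A and 8 in both RPL34 and RPL28. RPS7 and RPL3, with runs of 3 and 4, fell short of the 5 bases set here, and in RPS7 the C and T letters went on before the annotated start. A match or its absence in these letters says nothing on whether LARP1 binds the message.

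Ribosomal protein transcripts were lower at 250% than at 50% confluency in both subunits. limma on log2(value + 1) tested 80 of the 82 members among 20129 genes, with Benjamini-Hochberg adjustment over all of them, and 74 members were lower on day 5 at an adjusted p under 0.05, 0 were higher and 6 did not pass. At an unadjusted p under 0.05 the number higher was 0 as well, and it was 0 by edgeR and DESeq2. Over all genes tested, 27.6% were lower and 29.3% were higher. The median log2 fold change of the 80 members was -0.92 (quartiles -1.09 and -0.69), a level of 0.527 of that on day 3, beside a median of 0.01 over all genes tested. A fall of at least 2-fold was reached by 34 members, beside 7.6% of all genes. In 75 members each day 5 library lay below each day 3 library, beside 31.7% of all genes. RPL10L and RPL39L did not pass the filter on low values. RPL3L, counted among the 74, passed it chiefly through its day 3 libraries. In whole-cell RNA, fewer cells of a type and less RNA per cell cannot be told apart, and a share of all reads says nothing of the number of molecules per cell.

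**Figure D1:**
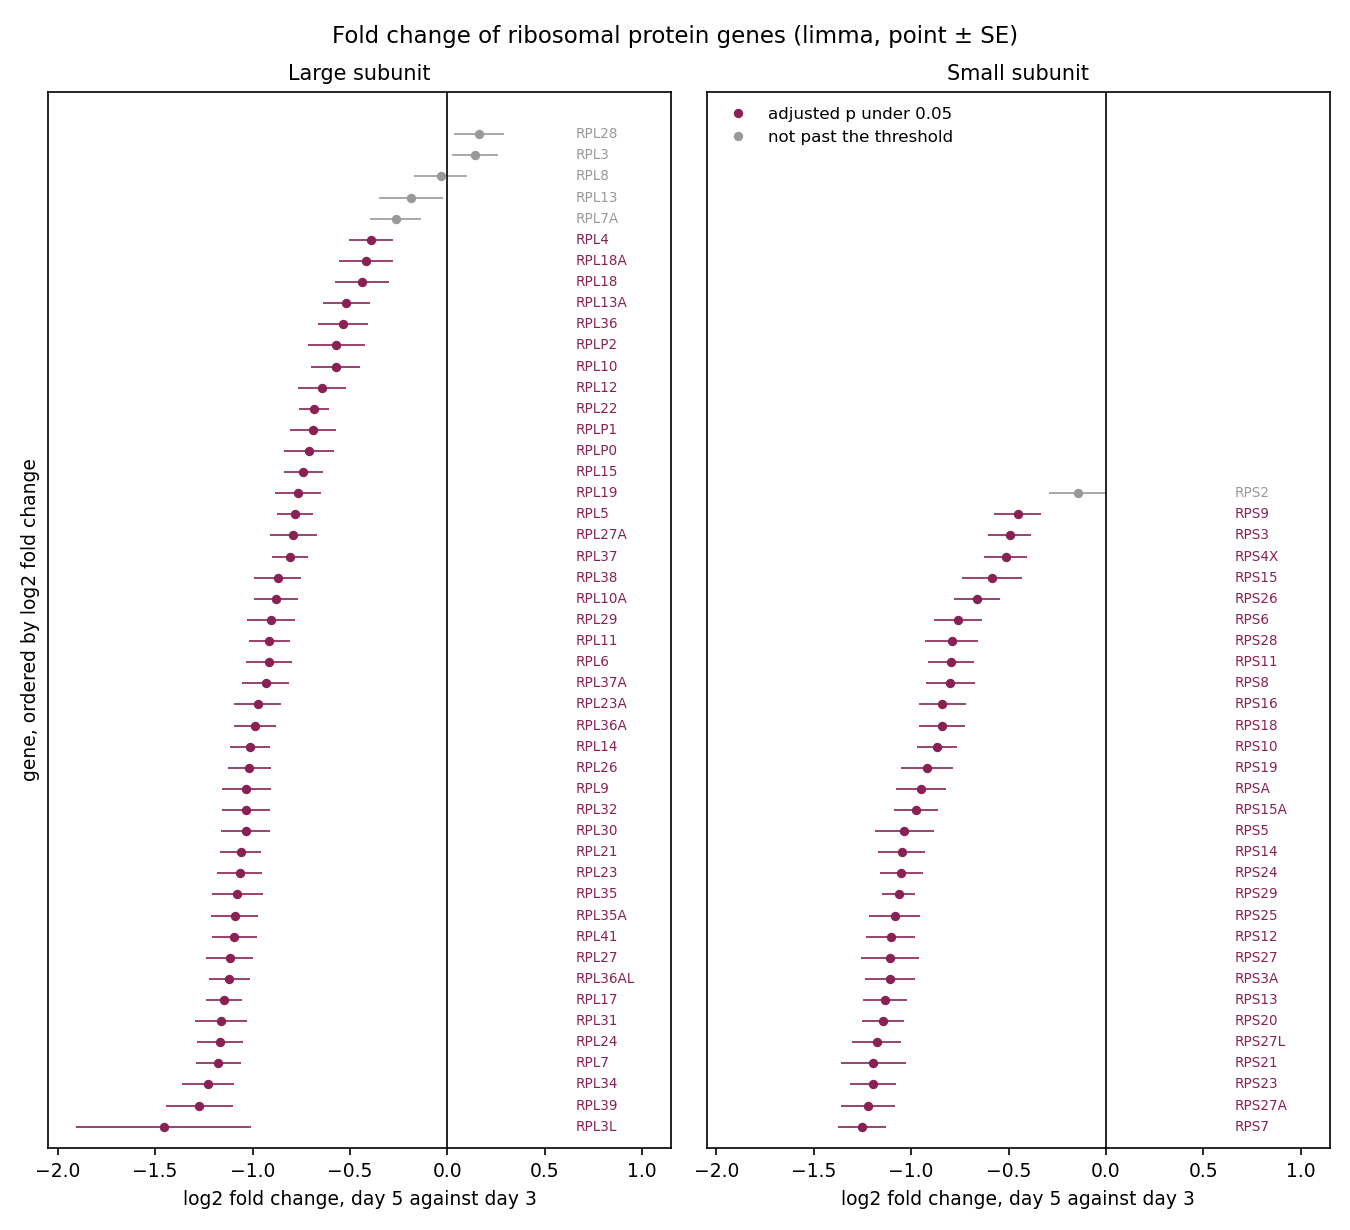
Log2 fold change of the tested ribosomal protein genes described here on day 5 against day 3 (point, with its SE from limma as the bar), large subunit on the left and small subunit on the right, n = 3 libraries per day. Genes past the adjusted p threshold are dark and the 6 others grey. Nearly all points lie left of 0, from -1.46 for RPL3L, which rests on few reads, to 0.16 for RPL28.

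Shares of reads, into which no scaling between libraries enters, showed the same difference. The members took 7.65%, 7.06% and 8.38% of reads in the 3 day 3 libraries and 4.72%, 4.82% and 4.77% in the 3 day 5 libraries. The day 5 share was 0.620 of the day 3 share, and the groups did not overlap (two-sided exact permutation test, p = 0.1, the smallest that 3 against 3 libraries can give, and 0.1 after adjustment over 7 shares and ratios). Day 5 libraries lay within a narrow range, whereas those of day 3 spread more widely. The median member stood 0.07 and 0.16 below its own day 3 mean on the log2 scale in day 3 replicates 1 and 2 and 0.24 above it in day 3 replicate 3. Replicate 3 of day 3, also the library with the fewest reads, held 80 of 80 tested members above their day 3 mean. In the day 5 libraries the median member stood at -0.94, -0.92 and -0.88. Without day 3 replicate 3, 73 of the 74 lower calls were again made.

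**Figure D2:**
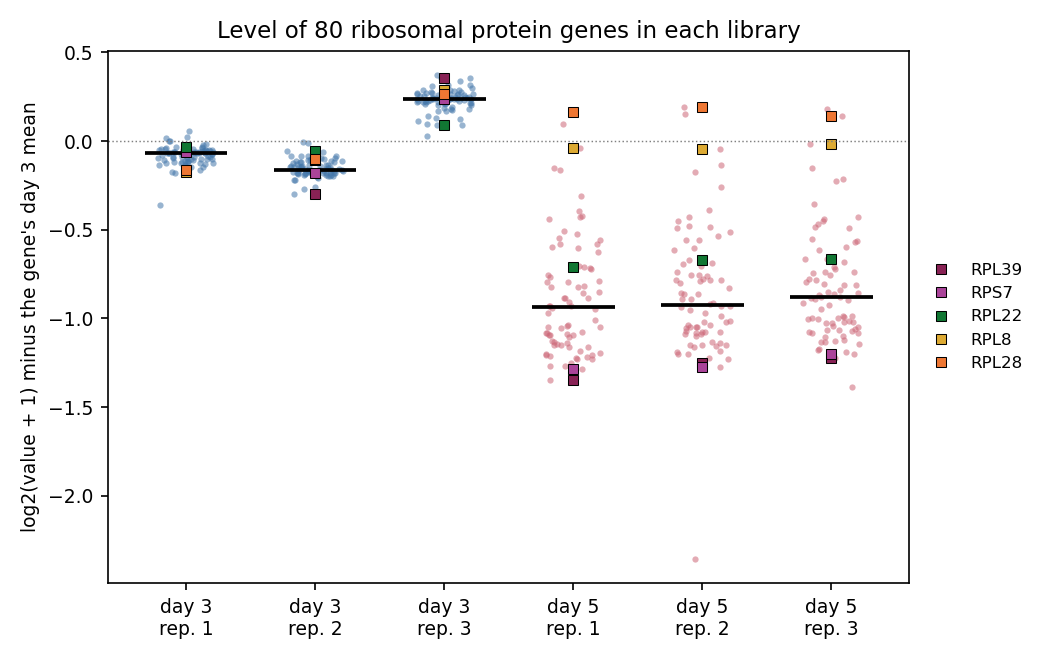
Each point is 1 of 80 ribosomal protein genes in 1 library, as log2(value + 1) minus that gene's mean over the 3 day 3 libraries; black lines are library medians and squares mark 5 genes. Medians are near 0 in the day 3 libraries, highest in replicate 3 (0.24), and -0.94 to -0.88 in the day 5 libraries, where RPL28 and RPL8 stay near 0.

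Large subunit genes made up 4.49 ± 0.365% of reads on day 3 and 2.90 ± 0.0345% on day 5 (SD, n = 3). Small subunit genes made up 3.20 ± 0.298% and 1.87 ± 0.0179%. The ratio of large to small subunit reads was 1.39, 1.42 and 1.39 in the day 3 libraries and 1.54, 1.55 and 1.55 in the day 5 libraries, without overlap (exact permutation p = 0.1). By gene, 43 of 48 large subunit members were lower, with a median log2 fold change of -0.91. In the small subunit 31 of 32 were lower, with a median of -0.99. Large subunit members were 48 of the 80 tested and held 5 of the 6 that did not pass. Which members did not pass depended on the fit, as given below. The SD of the log2 fold changes was 0.362 in the large subunit, with RPL3L and its few reads included, against 0.264 in the small.

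**Figure D3:**
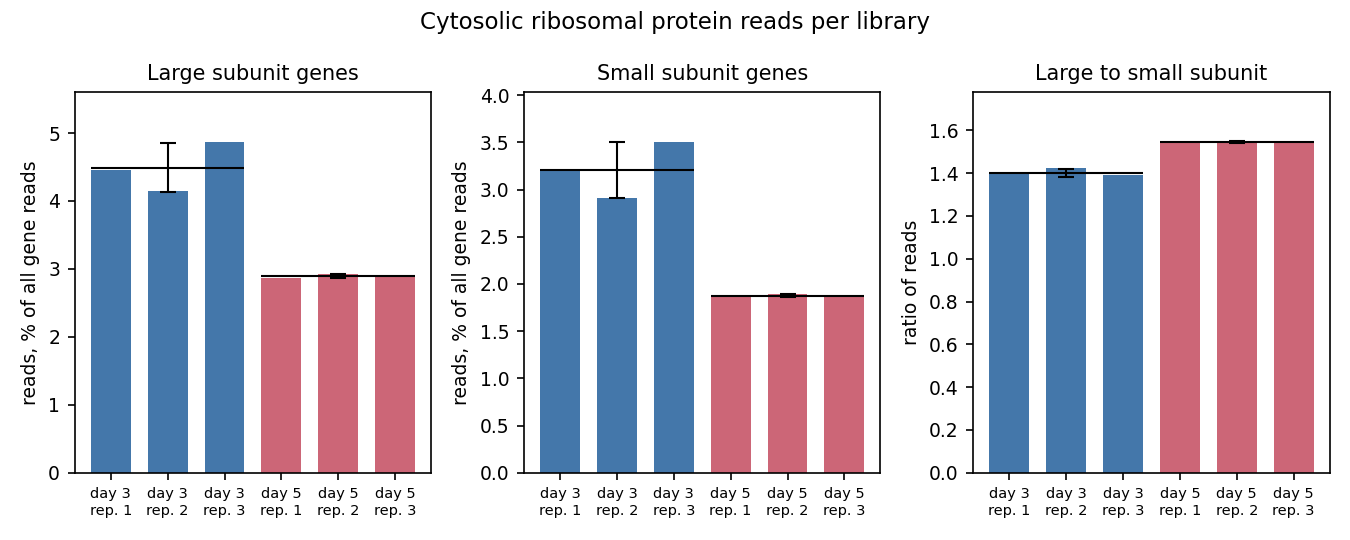
Share of all gene reads on large subunit genes (left) and small subunit genes (middle) and the ratio of both (right) in each of the 6 libraries; bars are libraries, lines with error bars are the mean ± SD of each day (n = 3). Both shares are lower in the 3 day 5 libraries, and the ratio is higher, at 1.54 to 1.55.

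Among well-expressed members the largest falls were in RPL39, RPS7, RPL34, RPS27A and RPS23. RPL39, a very short protein of the large subunit exit tunnel, had normalised values of 7667, 6464 and 10195 on day 3 and of 3126, 3347 and 3418 on day 5. Its log2 fold change was -1.27 (SE 0.173, adjusted p = 0.00146, limma). The day 5 libraries were all under the lowest day 3 library by a wide gap, and only the day 3 values were scattered. RPS7, a small subunit protein that can also bind MDM2, had 37790, 34840 and 46554 on day 3 and 16204, 16318 and 17156 on day 5, a log2 fold change of -1.25 (SE 0.124, adjusted p = 0.000501). RPL34 had 16916, 15283 and 21200 on day 3 and 7327, 7461 and 7780 on day 5, a log2 fold change of -1.23 (SE 0.134, adjusted p = 0.000678). In both genes the groups were far apart and day 3 replicate 3 was the highest library. RPS23, a protein of the decoding centre, fell from 48280 ± 6976 to 20953 ± 441 (SD, n = 3), with a log2 fold change of -1.19 (SE 0.118, adjusted p = 0.000498). This order rests on the uncorrected fit. After correction for GC content and length, RPL39 (-0.67), RPL34 (-0.58) and RPS27A (-0.67) lay near the members' median. RPS27L (-1.24) and RPS19 (-1.19) then exceeded RPS23 (-1.14) and RPS7 (-0.94). The length used was that of the canonical transcript, 6110 bases in RPS27L, 3252 in RPS23 and 2021 in RPS19. It was 390 in RPL39, 546 in RPL34, 785 in RPS27A and 732 in RPS7. Whether another length would give the same order was not tested.

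RPS27A encodes a small subunit protein fused to ubiquitin, so that its message supplies both. It had values of 44666, 41345 and 57859 on day 3 and of 19900, 20327 and 20773 on day 5, a log2 fold change of -1.22 (SE 0.138, adjusted p = 0.000756). FAU, whose product joins a ubiquitin-like protein to a small subunit protein, was lower as well, with a log2 fold change of -1.05 (SE 0.137, adjusted p = 0.00126, limma).

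The 6 members that did not pass the test are named here after their values were seen: RPL3, RPL7A, RPL8, RPL13, RPL28 and RPS2. RPL28 had 15846, 16553 and 21389 on day 3 and 19873, 20276 and 19592 on day 5. Its log2 fold change of 0.16 (SE 0.129, adjusted p = 0.318, limma) turned to -0.31 after correction for GC content and length. The length entered for RPL28 was its canonical transcript of 4209 bases, beside a coding length of 411. RPL3, which sits close to the peptidyl transferase centre, had 45334, 47007 and 58297 on day 3 and 53333, 55384 and 56613 on day 5, a log2 fold change of 0.14 (SE 0.116, adjusted p = 0.331). In both genes the day 5 values lay inside the day 3 range, between replicate 3 and the other two. Without day 3 replicate 3, RPL28 (log2 fold change 0.30, adjusted p = 0.0172) and RPL3 (0.26, adjusted p = 0.0312) were called higher, the only members to be so called under any alternative. RPL8 stood at 58565 ± 10522 and 56667 ± 646, and its log2 fold change of -0.03 (SE 0.135) took the other sign with library totals (0.03) and without day 3 replicate 3 (0.11). RPS2 stood at 94343 ± 18820 and 84232 ± 548, with a log2 fold change of -0.15 (SE 0.146) that came to 0.01 without that library. RPL13 had a log2 fold change of -0.18 (SE 0.163). RPL7A, at -0.27 (SE 0.133, adjusted p = 0.137), was called lower by edgeR (adjusted p = 0.0139) and DESeq2 (adjusted p = 0.0178) on the recovered reads, and its groups did not overlap. After correction for GC content and length, 4 of the 6 were called lower: RPL8 (log2 fold change -0.42, adjusted p = 0.0192), RPL13 (-0.42, adjusted p = 0.0418), RPS2 (-0.36, adjusted p = 0.0479) and RPL28 (adjusted p = 0.0439). RPL3 (0.10) and RPL7A (-0.12) did not pass with that correction either. The GC contents of these 6 transcripts lay between 51.9% and 63.6%.

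The acidic stalk proteins RPLP0, RPLP1 and RPLP2, which recruit the elongation factors, fell together, in the uncorrected fit by less than the median member. After correction for GC content and length, RPLP0 (-0.66) stood at the members' median (-0.66), with RPLP1 at -0.44 and RPLP2 at -0.56. RPLP0 had 102110, 97431 and 131020 on day 3 and 66369, 67717 and 66378 on day 5, a log2 fold change of -0.71 (SE 0.127, adjusted p = 0.00436, limma). RPLP1 stood at 32919 ± 4868 on day 3 and 20270 ± 363 on day 5 (log2 fold change -0.69). RPLP2 stood at 22837 ± 4509 and 15204 ± 137 (log2 fold change -0.57, adjusted p = 0.0170). In each of the 3 genes the groups did not overlap. RPSA, a small subunit protein also known as the laminin receptor, went from 69730 ± 11624 to 35811 ± 552 (log2 fold change -0.95, adjusted p = 0.00145).

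The large subunit proteins best known for binding MDM2 are RPL5, RPL11, RPL23 and RPL26. All 4 genes were lower, beside 74 of all 80 members tested. RPL5 had 47754, 46204 and 54352 on day 3 and 27848, 28643 and 29597 on day 5 (log2 fold change -0.78, SE 0.0911, adjusted p = 0.000842, limma). RPL11, which enters the ribosome in one particle with RPL5, had 46483, 43116 and 54070 on day 3 and 25039, 24990 and 25955 on day 5 (log2 fold change -0.91, SE 0.104, adjusted p = 0.000782). RPL23 and RPL26 had log2 fold changes of -1.07 and -1.02. After correction for GC content and length the 4 genes stood at -0.41 (RPL5), -0.66 (RPL11), -0.94 (RPL23) and -0.49 (RPL26), beside a members' median of -0.66. MDM2 itself stood at 8111, 8823 and 8320 on day 3 and 8316, 8522 and 8710 on day 5, with a log2 fold change of 0.02 (SE 0.0745, adjusted p = 0.856). RRN3, a transcription factor of RNA polymerase I examined beside it, was lower, with a log2 fold change of -0.69 (adjusted p = 0.000858, limma). In the list of 8 genes that held MDM2 and RRN3, 2 were lower and 4 higher.

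Several members known from disease or signalling lay at different depths of the same fall. RPS19, RPS26, RPS10 and RPL5 are genes of Diamond-Blackfan anaemia. RPS19 went from 28835 ± 5086 to 15120 ± 116 (log2 fold change -0.92, adjusted p = 0.00189, limma) and RPS26 from 15576 ± 2278 to 9781 ± 363 (-0.66, adjusted p = 0.00444). RPS6, the phosphorylation target of the S6 kinases, went from 57008 ± 8970 to 33389 ± 565 (-0.76, adjusted p = 0.00303), a call lost after correction for GC content and length (-0.35, adjusted p = 0.0545). RPL24 went from 26297 ± 3739 to 11635 ± 230 (-1.17, adjusted p = 0.000521). RPL13A, which has also been studied outside the ribosome as part of an inhibitory complex on inflammatory messages, fell less, from 53096 ± 7865 to 36833 ± 1305 (-0.52, adjusted p = 0.0121). The X-linked RPS4X was among the small subunit genes with the smallest falls, at 42101, 42855 and 53131 on day 3 and 31362, 32128 and 32622 on day 5 (-0.51, SE 0.111, adjusted p = 0.00909). With that correction and the replicate number as a block, RPS26 (-0.39, adjusted p = 0.0572) and RPS4X (-0.30, adjusted p = 0.0652) missed the threshold too.

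RPS10, RPL17 and RPL36A had far fewer reads than most of the set. RPS10 stood at 389 ± 33.7 on day 3 and 213 ± 16.8 on day 5, RPL17 at 698 ± 35.7 and 315 ± 24.0, and RPL36A at 854 ± 62.5 and 431 ± 42.5. Each passed the test as lower, and their log2 fold changes were -0.87, -1.15 and -0.99. A read-through gene runs over each of them (RPS10-NUDT3, RPL17-C18orf32 and RPL36A-HNRNPH2), and those read-through genes held values of 0 to 3.09 in each library. Pseudogenes of RPL17, RPS10 and RPL36A held 483%, 224% and 88.9% of the reads of their parent gene, and how reads matching both were shared between them was not tested.

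Per length, as RPKM (reads per kilobase of merged exons, scaled to each library's reads on genes), the members spanned a very wide range. Merged exons take in every annotated transcript of a gene, so the range and the order depend in part on the annotation. They came to 639 bases in RPS12 and 9840 in RPS29, beside canonical transcripts of 503 and 295 bases. On this measure RPS12 was the highest, at 2105 ± 210 on day 3 and 1021 ± 13.3 on day 5 (SD, n = 3). RPS2 came next with 1091 ± 139 and 1028 ± 18.1, and RPS18 followed on day 3 only, at 886 ± 69.3, with RPL7 (881 ± 73.0) and RPS21 (860 ± 138) within its spread. On day 5 RPS18 stood at 517 ± 10.7, under RPL8 (765 ± 3.41) and level with RPL7A (518 ± 9.97). On day 5 the levels of RPS2 and RPS12 did not differ beyond their spread. The lowest were RPL10L, RPL3L and RPL39L, each under 0.3 on both days. RPL10L and RPL39L, which are used in the testis, had normalised values of at most 11.4 in each library. RPL3L, a heart and skeletal muscle form of RPL3, had 15.8, 20.4 and 26.9 on day 3 and 13.0, 3.22 and 7.25 on day 5, from as few as 3 reads. RPL3L reached the filter value of 10 in all 3 day 3 libraries but on day 5 only in replicate 1. Its fall therefore cannot be told apart from the effect of that filter. Its log2 fold change of -1.46 (SE 0.450, adjusted p = 0.0339) is the largest of the set but missed the threshold when any day 3 library was left out (adjusted p = 0.0508, 0.0754 and 0.0951 without replicates 1, 2 and 3), without day 5 replicate 3 (adjusted p = 0.0716) and with the replicate number as a block (adjusted p = 0.0559).

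In the uncorrected fit the 2 L paralogs with more than a few reads moved with their parents. The third tested, RPL3L, had a log2 fold change of -1.46 from few reads, beside 0.14 in its parent RPL3. After correction for GC content and length, RPS27L stood at -1.24 and RPS27 at -0.72, and RPL36AL at -0.54 and RPL36A at -0.42. RPL36AL went from 6644 ± 781 to 3048 ± 101.3 (log2 fold change -1.12, adjusted p = 0.000437, limma), and its parent RPL36A by -0.99. RPS27L went from 3306 ± 499 to 1452 ± 68.6 (-1.18, adjusted p = 0.000642) and its parent RPS27 from 22219 ± 4125 to 10200 ± 520 (-1.11). The ratio of RPS27L to RPS27 values was 0.149 ± 0.00589 on day 3 and 0.143 ± 0.00670 on day 5 (exact permutation p = 0.4, adjusted over 5 ratios 0.4). RPL39 was described above, and RPL10, the parent of RPL10L, had a log2 fold change of -0.57 (adjusted p = 0.00999).

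Paralogs with a number after the L or Y, which the symbol rule does not take, were examined beside them, and 4 of 4 found in the table were lower. RPL26L1 had 1541, 1488 and 2070 on day 3 and 601, 510 and 582 on day 5, a log2 fold change of -1.58 (SE 0.152, adjusted p = 0.000471). RPL22L1 had 15496, 14387 and 18087 on day 3 and 5676, 5573 and 6150 on day 5, a log2 fold change of -1.46 (SE 0.110, adjusted p = 0.000260). Its parent RPL22 fell by 0.68 on the log2 scale (SE 0.0771, adjusted p = 0.000763), from 13929 ± 761 to 8673 ± 159. The ratio of RPL22L1 to RPL22 values accordingly went from 1.14, 1.07 and 1.22 to 0.669, 0.637 and 0.7003, and that of RPL26L1 to RPL26 from 0.367 ± 0.0288 to 0.250 ± 0.0343. RPL7L1 went the other way against its parent, from a ratio of 0.102 ± 0.0103 to one of 0.146 ± 0.00937, and its own log2 fold change was -0.66 (adjusted p = 0.00149). These 3 ratios did not overlap between days (exact permutation p = 0.1 each, 0.167 adjusted over 5 ratios). They were taken from values without the correction for GC content and length. Pseudogenes of RPL26 held 34.2% of the reads of RPL26, and how reads matching both were shared was not tested.

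Reads on ribosomal protein pseudogenes were lower too. The table listed 1047 of them, which together took 0.282 ± 0.0124% of reads on day 3 and 0.196 ± 0.00336% on day 5 (exact permutation p = 0.1). Of 454 that passed the filter, 297 were lower and 6 higher, with a median log2 fold change of -0.79. The pseudogene with the most reads was RPS2P46 (mean value 20496, log2 fold change -0.18, adjusted p = 0.263), whose parent RPS2 likewise did not pass. How far these are reads of the parent genes was not tested. When the reads of each parent and its pseudogenes were summed before the fit, all 74 members remained lower.

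The members' falls varied with the base composition and the length of their transcripts. Across the 80 members the log2 fold change rose with the GC content of the canonical transcript (Spearman rho 0.52, Pearson r 0.55) and with the log2 coding length (rho 0.38, r 0.37). These are descriptions across genes of the same 6 libraries, and genes are not independent replicates. Among 13052 other protein-coding genes the same measures were 0.55 for GC content and 0.30 for coding length (Spearman), so both relations were present outside the ribosomal proteins. Of members with under 45% GC, 24 of 24 were lower, with a median log2 fold change of -1.06, beside -0.34 for 4853 other protein-coding genes of that class. Between 45% and 55% GC, 39 of 42 were lower, with a median of -0.87, beside 0.21 for 3955 others. At 55% GC and above, 11 of 14 were lower, with a median of -0.55, beside 0.58 for 4244 others. In coding sequences of up to 600 bases, 56 of 57 members were lower (median -1.02, beside -0.39 for 1580 others), and above that length 18 of 23 (median -0.74, beside 0.19 for 11472 others). The members' median lay below that of other genes in each class. A loess correction of each library was made for GC content and for the length of the canonical transcript, not the coding length. After it the members' median was -0.66, beside a median of -0.05 over all genes tested. With it 77 members were called lower, 73 of the 74 and 4 that had not passed.

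**Figure D4:**
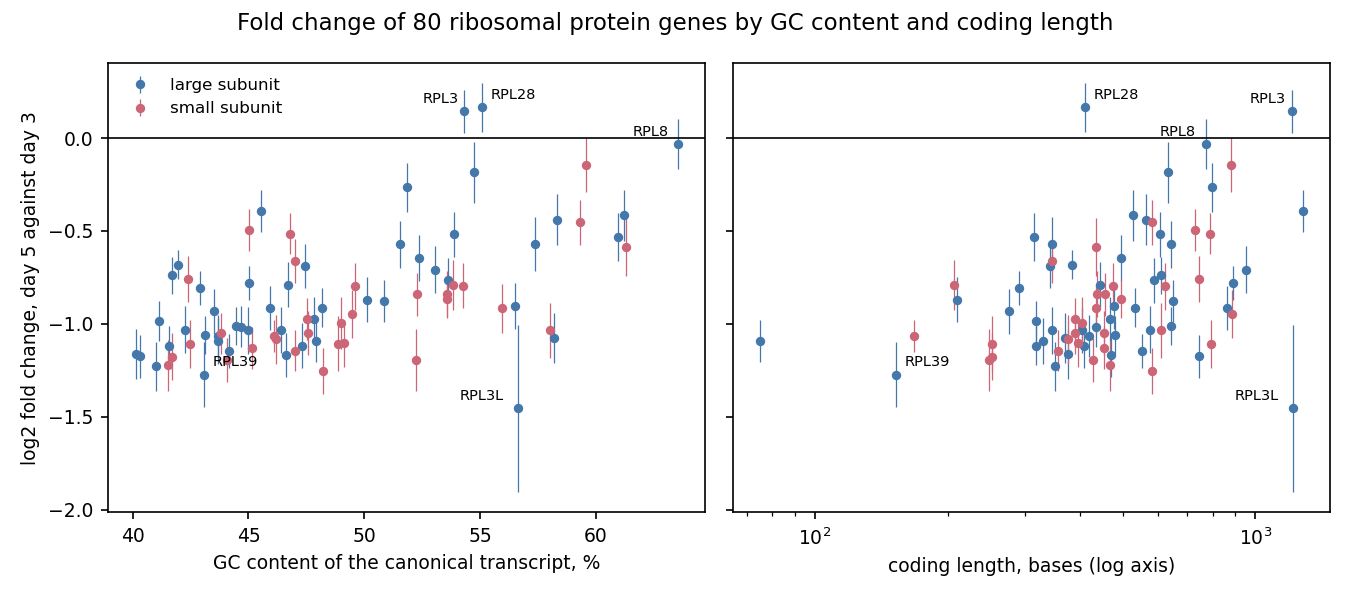
Log2 fold change (day 5 against day 3, ± SE from limma) of 80 ribosomal protein genes against the GC content of the canonical transcript in percent (left) and the coding length in bases on a log axis (right), coloured by subunit. Points rise to the right in both panels (Spearman rho 0.52 and 0.38), with RPL8 at the highest GC content and RPL3L apart at the bottom.

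Members with and without snoRNAs or the 5′ TOP letters were mostly lower in either case. Of 28 tested members with an annotated snoRNA inside the gene, 24 were lower, with a median log2 fold change of -0.80. Of 52 without one, 50 were lower, with a median of -0.98. The 5′ TOP letters stood at the start of 43 of 60 lower members with a RefSeq start site (71.7%) and of 3 of 4 that did not pass. Level per length of merged exons on day 3, with the limit of that measure given above, had little relation to the fold change (Spearman rho 0.13, n = 80 genes).

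Among related gene groups, the mitochondrial ribosomal protein genes, which encode the ribosome inside mitochondria and whose start sites bore the 5′ TOP letters in 5 of 67 cases, had a median close to that of the cytosolic set. They took 0.496 ± 0.0188% of reads on day 3 and 0.296 ± 0.00682% on day 5 (exact permutation p = 0.1). Of 75 tested, 60 were lower and 1 higher, with a median log2 fold change of -0.85. After correction for GC content and length, 60 were again called lower. MRPS18C had the largest fall (log2 fold change -1.61, adjusted p = 0.000225, limma) and MRPL10 was the gene that rose (0.54, adjusted p = 0.0151).

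Translation factors and other genes counted among the 5′ TOP genes were more mixed, although 14 of 15 with a RefSeq start site bore the letters. Of 21 tested, 13 were lower and 3 higher, with a median log2 fold change of -0.38. EIF3E, a subunit of initiation factor eIF3, had the largest fall, with 40414, 37384 and 46637 on day 3 and 19023, 19162 and 20020 on day 5 (log2 fold change -1.09, adjusted p = 0.000447). EEF2, the factor that moves the ribosome along the message and whose start site is printed above, had 34597, 43457 and 56242 on day 3 and 117400, 119660 and 118980 on day 5, a log2 fold change of 1.43 (SE 0.179, adjusted p = 0.00106). In the uncorrected fit EEF2 thus rose while most ribosomal proteins fell, and PABPC1, the poly(A)-binding protein, did so too (1.04, adjusted p = 0.000587). RACK1, a constituent of the small subunit, had a log2 fold change of -0.22 (adjusted p = 0.231). After correction for GC content and length, 13 genes of this list were again called lower. Fold changes in this and the other related lists are given without that correction.

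Of 15 chaperones and importers of ribosomal proteins, 10 were lower and 1 was higher. LTV1, a factor of small subunit assembly, had the largest fall, at 3012, 2892 and 3140 on day 3 and 1170, 1017 and 1174 on day 5 (log2 fold change -1.43, adjusted p = 0.000205, limma). AAMP was the gene that rose (0.43, adjusted p = 0.0396). Of 17 genes that act on 5′ TOP messages or in the TOR pathway, 8 were higher and 3 lower. For these lists the background was 29.3% higher and 27.6% lower over all genes tested. Among 13052 protein-coding genes other than members, 4943 were higher and 3611 lower. LARP1 had 6009, 6851 and 6847 on day 3 and 11280, 10662 and 11286 on day 5, a log2 fold change of 0.76 (SE 0.0871, adjusted p = 0.000813). DDIT4, a stress-induced inhibitor of TOR signalling, rose from 506 ± 19.7 to 11395 ± 726, a log2 fold change of 4.49 (SE 0.0841). CNBP, a binder of 5′ TOP messages, had the largest fall of that list, at -0.83 (adjusted p = 0.000441). Of 12 genes of ribosome quality control, 6 were higher, led by the ubiquitin ligase HUWE1 (1.51, adjusted p = 0.000238), and 3 were lower, led by the ribosome rescue factor HBS1L (-0.81, adjusted p = 0.000532).

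**Figure D5:**
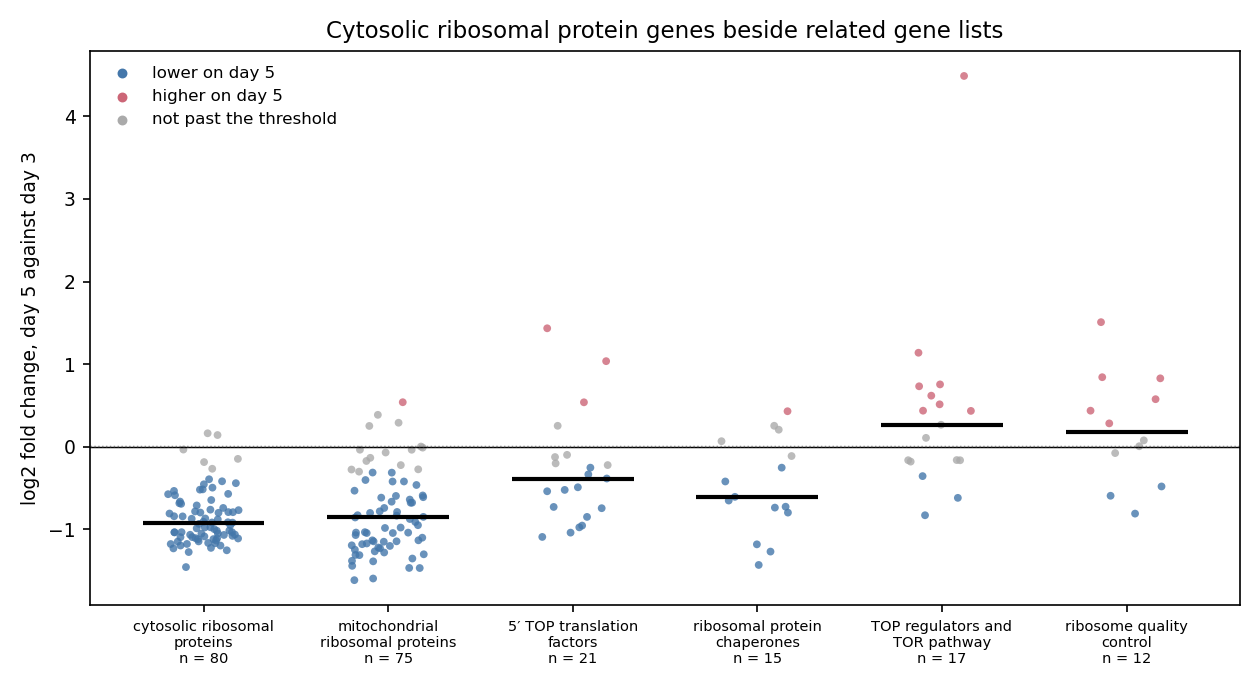
Log2 fold change (day 5 against day 3) of the tested genes in the cytosolic ribosomal protein set described here and in 5 related lists, with black lines at the medians, blue for lower, red for higher and grey for genes not past the threshold. Both sets of ribosomal proteins lie mostly below 0 (medians -0.92 and -0.85), and DDIT4 stands apart at 4.49.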

How the data were processed

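Whole-cell RNA of HCT116 cells was depleted of ribosomal RNA and sequenced as paired, strand-marked libraries with molecular identifiers. The authors mapped the reads to hg38 genes of Ensembl release 99, reverse strand only, in CLC Genomics Workbench, and their methods name TMM; bcl2fastq, FastQC 0.11.8 and MultiQC 1.7, listed in the submitters' processing notes, were used before that. The deposited table holds a normalised signal value for each of 38055 genes in 3 day 3 and 3 day 5 libraries. Its column names follow the form of DESeq2, which the methods do not name for these data. It also holds the authors' own fold changes and p-values, which were not used; nor were the small RNA tables, and day 7 values were not analysed here. In each library 100% of the deposited values were whole multiples of 1 read (within 0.1), so reads were recovered (27470978 to 56689369 per library). Exact p-values and SDs cover the spread between libraries.

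limma 3.58.1 (R 4.3.3) was fitted to log2(value + 1) for genes that reached 10 in 3 or more of the 6 libraries, without a block, at an adjusted p (Benjamini-Hochberg) of 0.05; fold changes on this scale understate those of low genes. Error terms are the SE of the log2 fold change or the SD over 3 libraries. edgeR 4.0.16 and DESeq2 1.42.0 were run on recovered reads as alternatives. Scripts were tested on simulated data. Python 3.11.15, pandas 2.3.3, numpy 2.4.6, scipy 1.17.1 and matplotlib 3.10.9 were used. GENCODE release 44 (GRCh38) gave the GC content and length of canonical transcripts, both used in the correction named below. It also gave coding and merged exon lengths and snoRNA positions, and RefSeq gave the start sites. The members and the related gene lists were chosen with earlier results of these data known. EEF1G, RPS4Y2 and PECAM1 were not found in the table by symbol. Values are given for the 6 members with the largest falls whose days did not overlap (none was called higher in the main fit). They are also given for the 3 highest and the 3 lowest per length, the stalk genes, RPSA, MDM2 binders, L paralogs and their parents. RPS27A, RPS6, RPS4X, RPL22, RPL13A, RPL24, RPL28, RPS10, RPS19 and RPS26 were included too. So was the gene with the largest rise and fall of each list. The other members that did not pass, RPL7, RPS21, PABPC1, RACK1, MDM2, RPS2P46 and the marker genes were added after their values were seen. Alternatives were other scalings, all genes without the filter, 0.1 as the pseudocount, a replicate block, leaving out each library, a 2-fold minimum and summed pseudogene reads; the correction for GC content and length was added after seeing the data. Some items withheld from this text are not reported here, although counts and medians over the members include them.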

Additional observations from a re-analysis of the deposited data

How the results depend on the processing

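Of the 74 members called lower, 74 had a log2 fold change below 0 in every fit, and 64 were called lower under every alternative other than the 2-fold minimum and the fit without a filter on low values, which itself called 64. Other scalings, a pseudocount of 0.1, edgeR, DESeq2 and summed pseudogene reads each made all 74 calls again. A 2-fold minimum left 34. Leaving out 1 library gave 68 to 73 lower calls, a median log2 fold change of -1.02 to -0.82, and 0 to 2 higher calls, the 2 being RPL3 and RPL28 without day 3 replicate 3. The median of the members was -0.66 after correction for GC content and length, and the cause was not tested. Adding the replicate block left it at -0.66, because a block present in full on both days cannot change these fold changes. With the replicate block alone, 71 of the 74 were called. The replicate numbers showed no sign of pairing the samples. The correlations of same-numbered libraries were -0.0989, 0.0101 and 0.000569 over 12715 genes, and no library correlated best with its own number. With 3 libraries a day, this check cannot exclude a pairing. Among single members, the sign turned for RPL28 after the GC and length correction (-0.31, with and without the block), for RPL8 with library totals (0.0338), and for RPL8 and RPS2 without day 3 replicate 3 (RPL8 -0.1208 to 0.1097 and RPS2 -0.2374 to 0.0126 over all libraries left out in turn). Across scalings the median of all genes tested moved between -0.04 and 0.08. With 3 libraries a day, no exact test of a share could pass 0.05.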
